A study of Mus musculus with 8 samples.

Results

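Synapsins, SV2 proteins, synaptophysins and synaptogyrins are the abundant proteins of the synaptic vesicle surface and membrane. Their 10 genes, Syn1, Syn2, Syn3, Sv2a, Sv2b, Sv2c, Syp, Synpr, Syngr1 and Syngr3, were taken by gene name from a table of read counts with 46078 rows, and each name matched 1 row. Poly(A) RNA of the mouse hippocampus was sequenced at 9 weeks of age in 2 genotypes with 4 libraries each, all from strain C57BL/6J. The WT group carried no transgene, and the T29-1 Cre group was hemizygous (Cre+/-) for Tg(Camk2a-cre)T29-1Stl, in which Cre recombinase is driven by the promoter of Camk2a, the gene of a CaM kinase of excitatory neurons in the forebrain. The labels name no floxed allele in either group, so the comparison asks what the transgene alone goes with. They do not say whether libraries of a genotype came from separate animals, and the p-values therefore cover the spread among these samples, which may be technical.

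A synaptic vesicle stores neurotransmitter in the nerve terminal and fuses with the plasma membrane when calcium enters. Synapsins are peripheral phosphoproteins that tether vesicles to each other in a reserve pool, and their phosphorylation by kinases, CaM kinases among them, releases the vesicles. SV2 proteins are glycosylated membrane proteins related to transporters, and SV2A is the binding site of the antiepileptic drug levetiracetam. Synaptophysin, synaptoporin and the synaptogyrins are related proteins that cross the vesicle membrane repeatedly, and synaptophysin binds the vesicle SNARE protein synaptobrevin. In the hippocampus, synaptoporin is known from the mossy fibre terminals of dentate granule cells and from interneurons.

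Promoter sequences (RefSeq, GRCm38.p6, from 250 bases before to 50 bases after a start site) were found for 8 of the 10 genes, and those of Syn1, Sv2a and Sv2c are shown. Syn1 is shown because its promoter is in common use to restrict transgenes to neurons, and Sv2a and Sv2c because they lay furthest apart in level per transcript length among relatives of 1 family that both had a promoter entry. Each is written 5′ to 3′ in the direction of the gene, at chrX:20920869-20921168 (minus strand), chr3:96180977-96181276 (plus strand) and chr13:96132528-96132827 (minus strand), in that order. Capitals mark, on either strand, the cAMP response element TGACGTCA and the left part TTCAGCACC of the RE1 element (the site of the neuronal repressor REST) in Syn1, and the GC box GGGCGG in Sv2a and Sv2c.
Syn1: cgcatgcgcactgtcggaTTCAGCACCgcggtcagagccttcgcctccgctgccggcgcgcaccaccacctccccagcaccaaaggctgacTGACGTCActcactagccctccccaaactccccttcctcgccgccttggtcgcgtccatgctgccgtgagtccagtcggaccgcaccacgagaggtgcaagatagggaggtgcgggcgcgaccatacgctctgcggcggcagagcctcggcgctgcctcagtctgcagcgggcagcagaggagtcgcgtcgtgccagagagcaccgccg
Sv2a: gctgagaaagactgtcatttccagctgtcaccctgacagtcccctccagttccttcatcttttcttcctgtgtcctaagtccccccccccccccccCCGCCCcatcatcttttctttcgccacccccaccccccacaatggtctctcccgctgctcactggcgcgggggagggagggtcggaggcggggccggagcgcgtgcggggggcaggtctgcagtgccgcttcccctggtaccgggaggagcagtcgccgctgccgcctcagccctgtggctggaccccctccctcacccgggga
Sv2c: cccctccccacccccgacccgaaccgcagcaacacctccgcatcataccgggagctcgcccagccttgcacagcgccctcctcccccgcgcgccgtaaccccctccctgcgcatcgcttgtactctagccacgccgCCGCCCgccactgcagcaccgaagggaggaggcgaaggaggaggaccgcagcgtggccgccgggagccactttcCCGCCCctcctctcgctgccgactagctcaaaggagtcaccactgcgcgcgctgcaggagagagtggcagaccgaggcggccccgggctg
The left part of RE1 occurred in 0.371% and the cAMP response element in 1.79% of 32851 mouse promoters of this length. The Syn1 promoter was 1 of 5 in which the whole RE1 consensus was found with at most 1 mismatch, on either strand. The GC box, held by 35.7% of promoters, occurred 1 time in the Sv2a window and 2 times in that of Sv2c. These matches describe letters in the windows and were not tested against the expression values.

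The 8 libraries held 23358289 to 30882631 counts, and a member had between 168 (Syn3) and 39516 (Syp) reads in a library. Together the 10 genes took 0.437% to 0.499% of all counts. Principal neuron and regional markers of the hippocampus were present in every library, with Slc17a7, the vesicular glutamate transporter of its principal cells, at 1570 to 1885 CPM (counts scaled to library size), Prox1 of granule cells at 96.95 to 141 CPM and Fibcd1 of CA1 at 223 to 250.3 CPM. Library WT replicate 4 was separated from the rest by the leading principal component (26.1% of the variance in log2 CPM), where it scored 33.4 and the others -8.74 to 0.69. Fold changes without it are therefore also given.

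No member differed between the genotypes past the threshold, an adjusted p under 0.05 in edgeR's quasi-likelihood test over 15996 genes. Of the 10, edgeR called 0, where it called 0.00625% of all genes tested, 1 gene that is not a member. None of the 10 (0) had an unadjusted p under 0.05, against 2.43% of all genes. Without WT replicate 3 the members' count was also 0, against 4.2%. With DESeq2 and with limma-voom, 0 members were called and 0 had an unadjusted p under 0.05, against 1.67% and 2.41% of all genes at that p. Complete separation of the 4 WT from the 4 T29-1 Cre libraries occurred for 0 of the 10 and for 1.81% of all genes. The log2 fold change of T29-1 Cre over WT was above 0 for 7 members (and for 49.7% of all genes) and below 0 for 3, between -0.061 (Syp) and 0.078 (Syn3), and its median of 0.0093 stood beside -0.0008 over all genes. Without WT replicate 4 it was 0.0215 for Syn1, 0.0167 for Syn2, 0.018 for Sv2a, -0.0245 for Synpr and 0.0265 for Syngr1, and the values of the other 5 are given with each gene. In bulk RNA, fewer cells of a type and less RNA per cell cannot be told apart.

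The spread between libraries set how small a difference could be seen. The edgeR intervals used here estimate that spread for each gene partly from the other genes. Intervals from the libraries of each gene alone were not computed and may be wider. For 9 of the 10 genes the 95% interval of the fold change lay within 1.2-fold in either direction, against 76.2% of all genes with a mean level of 5 CPM or more, many of them less expressed. This limit of 1.2-fold was chosen after the values had been seen. The exception was Syn3, with an interval of 0.823-fold to 1.35-fold.

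**Figure D1:**
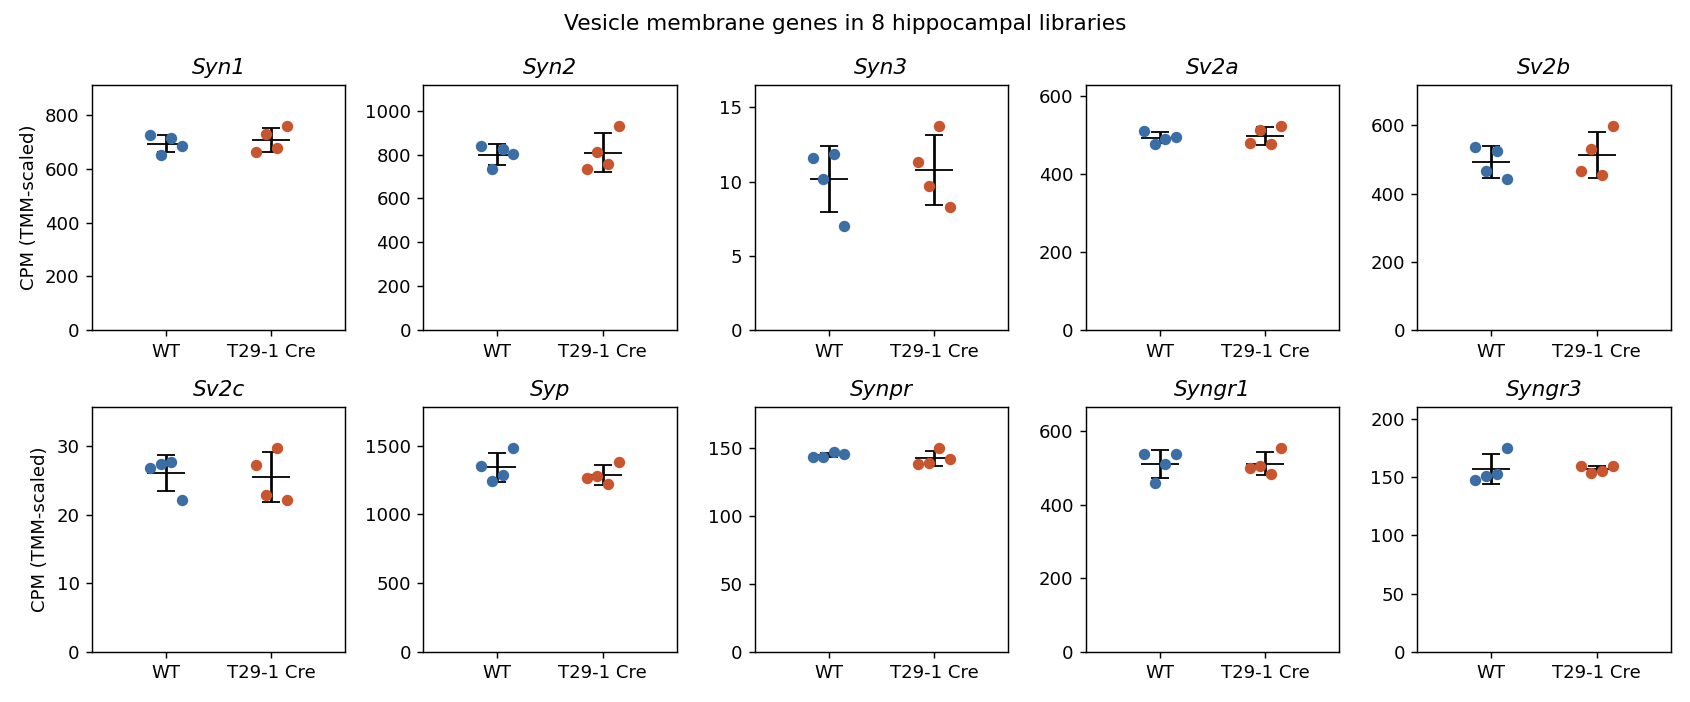
Level of each gene in CPM (vertical axes, from 0, scaled by TMM) in the 4 WT and the 4 T29-1 Cre libraries. Points are libraries in the order of their replicate numbers, horizontal bars are means and whiskers are SDs; the points of the genotypes overlap for all 10 genes, and Syn3 has the widest relative spread.

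**Figure D2:**
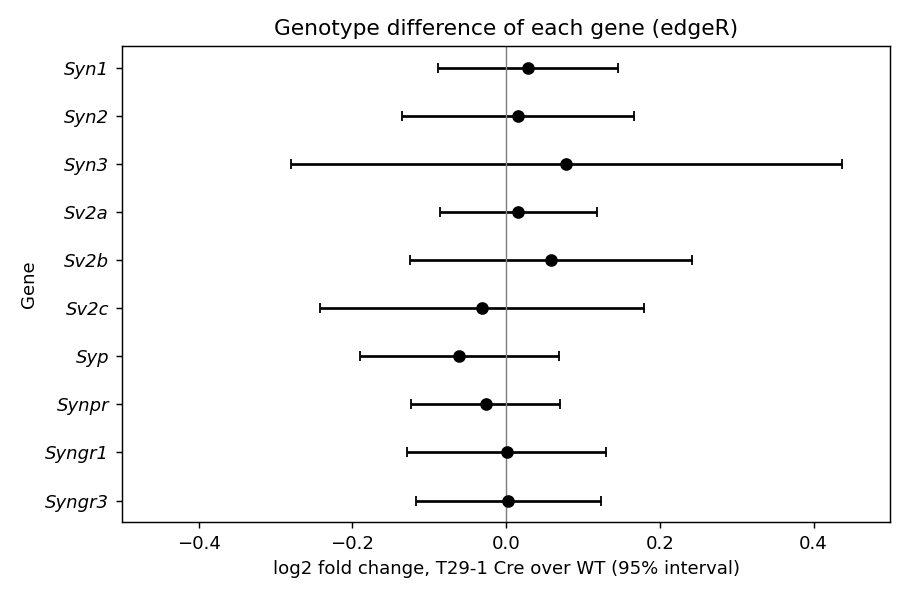
Log2 fold change of T29-1 Cre over WT (horizontal axis) for each gene, with its 95% interval from edgeR over 4 against 4 libraries. Every interval includes 0, and that of Syn3, from -0.28 to 0.44, is the widest.

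Among the synapsins, Syn1 encodes synapsin I, a main vesicle phosphoprotein of adult nerve terminals (chromosome X, 20860511 to 20921004, minus strand, GRCm38). It was at 727, 654, 715 and 685 CPM in WT replicates 1 to 4 and at 664, 729, 679.8 and 762 CPM in T29-1 Cre replicates 1 to 4. The highest library was T29-1 Cre replicate 4 and the lowest WT replicate 2, with the other values of the genotypes interleaved. Mean levels were 695 ± 32.6 and 709 ± 45.1 CPM (errors are SDs, n = 4 per genotype), with a log2 fold change of 0.028 (SE 0.0545, edgeR adjusted p = 0.998; exact two-sided permutation p = 0.629). A fall of more than 5.99% or a rise of more than 10.6% lay outside the 95% interval.

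Syn2, which encodes synapsin II (chromosome 6, 115134902 to 115282006, plus strand), was the most counted synapsin. Its WT libraries held 839, 735, 826 and 801 CPM, and its T29-1 Cre libraries 734.5, 812, 757 and 932 CPM. A single library, T29-1 Cre replicate 4, lay above all 4 WT libraries, and T29-1 Cre replicate 1 lay with the lowest of them. Its log2 fold change was 0.016 (SE 0.0703, edgeR adjusted p = 0.998). Without T29-1 Cre replicate 4 it was -0.0597, and that of Syn1 was -0.0086.

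Syn3, which encodes synapsin III, a form known best from immature neurons (chromosome 10, 86055125 to 86498896, minus strand), was the least expressed member. It was at 11.6, 10.2, 11.8 and 7.02 CPM in WT and at 11.3, 9.68, 13.8 and 8.25 CPM in T29-1 Cre. WT replicate 4 and T29-1 Cre replicate 4 were the lowest libraries of their genotypes and T29-1 Cre replicate 3 was the highest of all. These values rest on 168 to 381 reads, for which counting alone gives a coefficient of variation of 6.00%, against 21.8% measured between the WT and 22% between the T29-1 Cre libraries. Between the genotypes the log2 fold change was 0.078 (SE 0.167, edgeR adjusted p = 0.998), -0.058 without WT replicate 4 and -0.065 without T29-1 Cre replicate 3.

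Of the SV2 genes, Sv2a (chromosome 3, 96181151 to 96195521, plus strand), whose protein is found at most kinds of synapse, had one of the narrowest spreads. WT libraries held 512, 476, 490.4 and 495 CPM and T29-1 Cre libraries 479.8, 513, 478 and 524 CPM. The T29-1 Cre libraries thus took both the highest value and 2 of the 3 lowest. The log2 fold change was 0.016 (SE 0.0475, edgeR adjusted p = 0.998), with a 95% interval of 0.942-fold to 1.09-fold.

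Sv2b (chromosome 7, 75114894 to 75309262, minus strand), known mainly from glutamatergic terminals, was counted as often as Sv2a but varied more. It was at 538, 467, 524 and 442 CPM in WT and at 468, 532, 454 and 599 CPM in T29-1 Cre. WT replicate 4 was the lowest of the 8 libraries and T29-1 Cre replicate 4 the highest. For Sv2b the log2 fold change was 0.058 (SE 0.0854, edgeR adjusted p = 0.998), 0.0098 without WT replicate 4 and -0.025 without T29-1 Cre replicate 4.

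Sv2c (chromosome 13, 95954594 to 96132577, minus strand), best known from the basal ganglia and from some interneurons, was the least expressed SV2 gene. Its WT libraries held 26.9, 27.4, 27.7 and 22.2 CPM and its T29-1 Cre libraries 27.3, 22.8, 29.8 and 22.1 CPM. WT replicate 4 lay apart from the other 3 WT libraries, at the level of the lower pair of T29-1 Cre libraries. For Sv2c the log2 fold change was -0.031 (SE 0.0981, edgeR adjusted p = 0.998), -0.098 without WT replicate 4 and 0.032 without T29-1 Cre replicate 4.

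In the synaptophysin pair, Syp (chromosome X, 7638471 to 7653256, plus strand), whose product is the standard marker of presynaptic terminals, was the most counted member. It was at 1351, 1239, 1289.8 and 1487 CPM in WT and at 1263, 1278, 1219.9 and 1384 CPM in T29-1 Cre. WT replicate 4 was the highest library and T29-1 Cre replicate 3 the lowest. The log2 fold change of -0.061 (SE 0.0602, edgeR adjusted p = 0.998) had the smallest unadjusted p of the 10 members, 0.329 in edgeR, and moved to -0.0075 without WT replicate 4. The exact permutation p was 0.457.

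Synpr, the gene of synaptoporin (chromosome 14, 13284780 to 13616340, plus strand), was the steadiest member. WT libraries held 143, 144, 147 and 145 CPM, and T29-1 Cre libraries 138, 139, 150.2 and 142 CPM. The coefficient of variation in WT, 1.19%, was no larger than the 1.63% that counting alone gives, and in T29-1 Cre it was 3.95%. The log2 fold change was -0.027 (SE 0.0451, edgeR adjusted p = 0.998), with a 95% interval of 0.918-fold to 1.05-fold.

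Both synaptogyrin genes had nearly the same mean in the genotypes. Syngr1 (chromosome 15, 80091334 to 80119501, plus strand), which encodes the main neuronal synaptogyrin, was at 537, 458, 509 and 537 CPM in WT and at 499.8, 506, 482 and 555 CPM in T29-1 Cre, a log2 fold change of 0.0008 (SE 0.0603, edgeR adjusted p = 0.9995). Syngr3 (chromosome 17, 24685092 to 24689955, minus strand), a synaptogyrin that binds the dopamine transporter, was at 147, 151, 153 and 176 CPM in WT and at 159.7, 154, 155 and 159.5 CPM in T29-1 Cre, a log2 fold change of 0.0029 (SE 0.0561, edgeR adjusted p = 0.998). WT replicate 4 was the highest library for Syngr3, and without it the value was 0.062. The coefficient of variation of Syngr3 was 1.81% in T29-1 Cre and 8.11% in WT, where counting alone gives 1.56%. The difference in spread was not tested.

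Levels of different genes can be set side by side only per transcript length. Per kilobase (kb) of merged exons (GENCODE M21), the order over the 8 libraries was Syp, Syn1, Syn2, Sv2a, Syngr1, Syngr3, Sv2b, Synpr, Sv2c and Syn3. Syp was at 257 ± 20.5 CPM per kb in WT and 247 ± 13.4 in T29-1 Cre, and Syn1 at 211 ± 9.89 and 215 ± 13.7 (errors are SDs, n = 4 per genotype). Syn2, Sv2a and Syngr1, between 95.3 and 133 CPM per kb in all libraries, were neighbours whose ranges overlapped, as were Syngr3 and Sv2b (52.7 to 84.8). Below them came Synpr at 14.6 to 15.9, Sv2c at 2.28 to 3.07 and Syn3 at 0.572 to 1.12 CPM per kb, each apart from the next.

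The order depends on the length used, since merged exons hold segments that a given transcript lacks. Per kb of the longest transcript, Syn2 rose to 208 ± 12 CPM per kb in WT (SD, n = 4), overlapping Syn1 at 213 ± 10, Syp stood at 472 ± 37.6, and Syn3 at 1.47 to 2.88 overlapped Sv2c at 2.43 to 3.27. In both orders Syp, Syn1 and Syn2 took the first 3 places in that sequence, and Synpr, Sv2c and Syn3 came last. Between Sv2a and Sv2c, the relatives whose promoters are printed above, the WT means were 106 ± 3.15 and 2.69 ± 0.268 CPM per kb of merged exons (SD, n = 4).

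**Figure D3:**
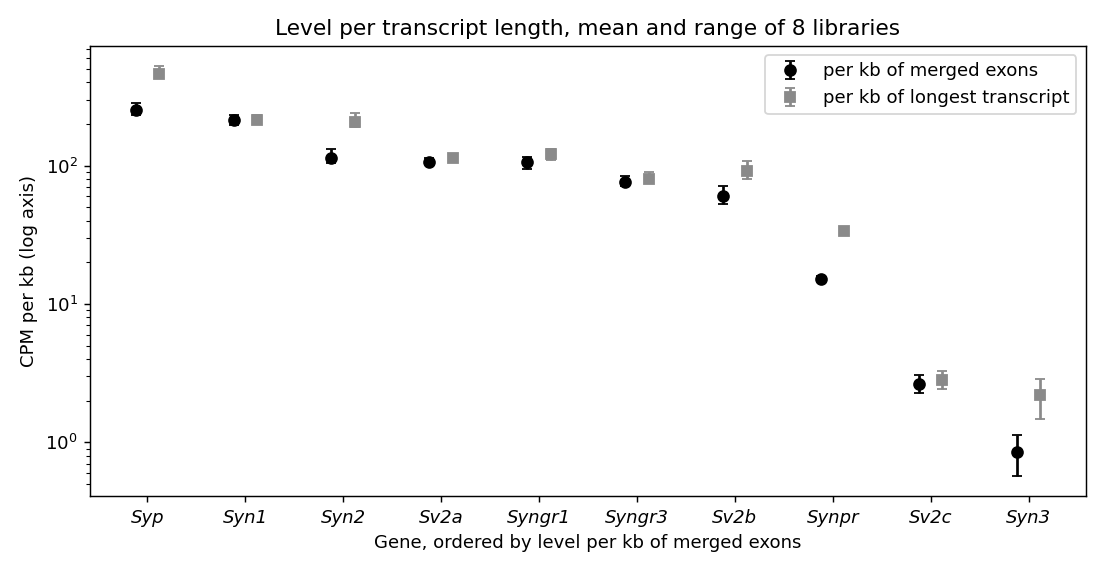
Level of each gene in CPM per kb (vertical log axis), as the mean over the libraries with whiskers from the lowest to the highest of 8 libraries. Black circles use the length of merged exons and grey squares that of the longest transcript; Syp is highest and Syn3 lowest on both.

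Within each family the shares of the members were nearly equal in both genotypes, whereas the shares themselves depend on the length used. Per kb of merged exons, Syn1 made up 64.8% ± 0.368 of the synapsin signal in WT and 65.0% ± 1.06 in T29-1 Cre, Syn2 35.0% ± 0.397 and 34.7% ± 1.12, and Syn3 0.254% ± 0.0513 and 0.269% ± 0.0752 (errors are SDs, n = 4 per genotype). Sv2a made up 63.4% ± 1.90 of the SV2 signal in WT and 62.8% ± 1.68 in T29-1 Cre, and Sv2c 1.6% ± 0.146 and 1.55% ± 0.329 (errors are SDs, n = 4 per genotype). Synpr stood at 5.65% ± 0.408 of the signal of Syp and Synpr in WT and 5.76% ± 0.427 in T29-1 Cre (errors are SDs, n = 4 per genotype). For Syngr3 the share of the synaptogyrin pair was 41.7% ± 2.09 and 41.7% ± 1.28 (errors are SDs, n = 4 per genotype). Per kb of the longest transcript the WT shares were 50.4% for Syn1, 49.1% for Syn2 and 0.502% for Syn3, 55.4% for Sv2a and 1.39% for Sv2c, 6.70% for Synpr and 39.5% for Syngr3, and those in T29-1 Cre were 50.7%, 48.8%, 0.533%, 54.7%, 1.35%, 6.84% and 39.6%, in that order.

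A ratio of 2 genes counted in the same library does not depend on how libraries are scaled, and 6 such ratios were compared between the genotypes. None passed the threshold: the difference of the mean log2 ratio (T29-1 Cre less WT) was -0.016 for Syn2/Syn1, 0.059 for Syn3/Syn1, 0.039 for Sv2b/Sv2a, -0.052 for Sv2c/Sv2a, 0.032 for Synpr/Syp and 0.004 for Syngr3/Syngr1. The exact two-sided permutation p lay between 0.714 and 1, and between 0.96 and 1 after Benjamini-Hochberg adjustment over the 6. The smallest unadjusted p that 4 against 4 libraries allow is 0.0286, so that a single ratio could not have passed after adjustment.

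The read-count ratio Syn2/Syn1 was 1.15, 1.12, 1.16 and 1.17 in WT and 1.11, 1.11, 1.11 and 1.22 in T29-1 Cre. The first 3 T29-1 Cre libraries lay below all WT libraries and T29-1 Cre replicate 4 above them all. Without that library, singled out after the values had been seen, the difference on the log2 scale was -0.051, for which no test is given. The ratio Sv2b/Sv2a was 1.05, 0.981, 1.07 and 0.892 in WT and 0.975, 1.04, 0.95 and 1.14 in T29-1 Cre, with the lowest value in WT replicate 4 and the highest in T29-1 Cre replicate 4. Without these libraries in turn its difference was -0.014 in both cases.

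**Figure D4:**
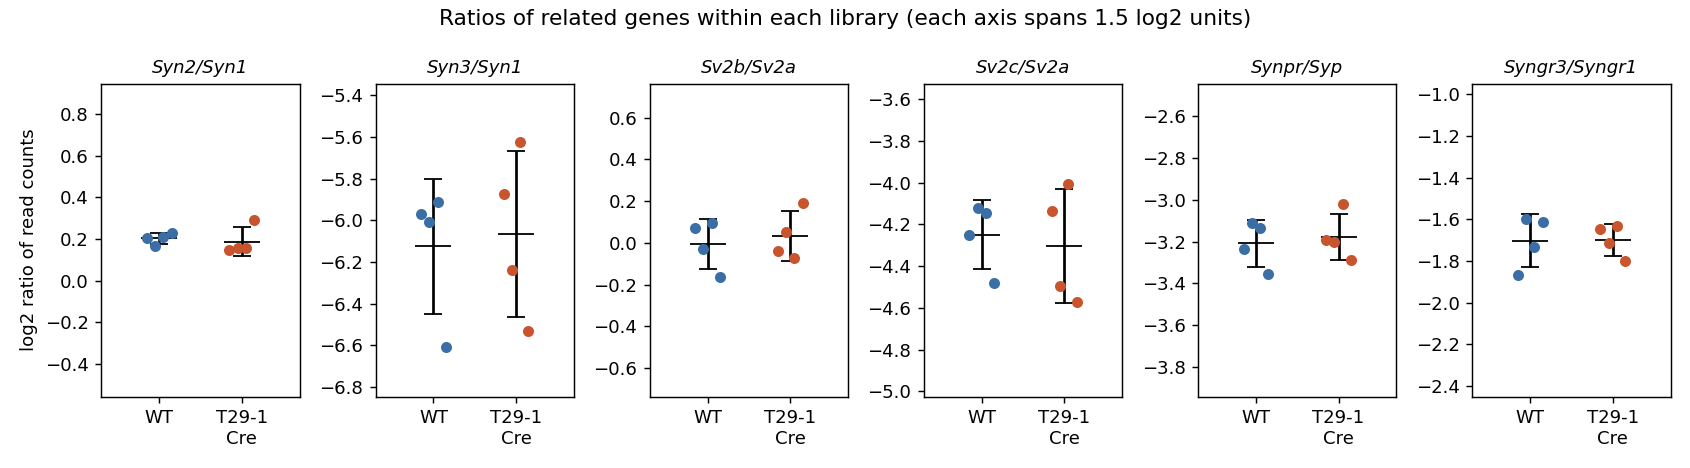
Log2 ratio of the read counts of 2 related genes within each library (vertical axes, each spanning 1.5 log2 units), for WT and T29-1 Cre. Points are libraries in the order of their replicate numbers, horizontal bars means and whiskers SDs (n = 4); Syn2/Syn1 is the tightest ratio and Syn3/Syn1 the widest.

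For 9 of the 10 members the SD of log2 CPM within each genotype was larger than the log2 fold change, the exception being Synpr with its narrow spread in WT (SD 0.0171). With each gene taken relative to its mean over the 8 libraries, Syn1 and Sv2a had the most similar profiles of the 45 pairs, with a root mean square difference of 0.0306 on the log2 scale, followed by Syn1 and Syn2 at 0.0459 and Syp and Syngr1 at 0.0523. The least similar were Syn3 and Syp at 0.365. T29-1 Cre replicate 4 was the highest library for 5 of the 10 members, Syn1, Syn2, Sv2a, Sv2b and Syngr1, against 12.9% of all genes. It was the lowest for Sv2c, as for 13.8% of all genes. T29-1 Cre replicate 3 was the highest for Syn3, Sv2c and Synpr and the lowest for Syp. Of all genes, 10.6% were highest and 9.63% lowest in T29-1 Cre replicate 3. This grouping was described after the values had been seen.

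Summed levels of hippocampal subfield markers also had extremes in T29-1 Cre replicates 3 and 4, though not only there. T29-1 Cre replicate 4 had the highest summed level of 8 CA2 and CA3 markers, 430.5 CPM against 317 to 361 in the other T29-1 Cre and 341 to 388.5 in the WT libraries. It also had the lowest sum of 10 granule cell markers, 546 CPM, and of 6 CA1 markers, 754 CPM. T29-1 Cre replicate 3 had the highest sum of granule cell markers, 737 CPM, against 622 to 684 in WT. WT replicate 4 had the highest CA2 and CA3 sum of the WT libraries, 388.5 CPM, and was the lowest library for Sv2b and Syn3. The highest sum of CA1 markers, 934.7 CPM, was in T29-1 Cre replicate 1, which was the highest library for no member. Any relation of these sums to the members was not tested. All 24 of these markers were tested and detected in each library, edgeR called 0 of them, and 0 had an unadjusted p under 0.05.

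Of 65 tested markers of 10 other cell types and regions, edgeR also called 0, and 5 had an unadjusted p under 0.05, where edgeR gave 2.43% of all genes. These were Fgfr3 of astrocytes (log2 fold change 0.17), Ttr and Clic6 of the choroid plexus (2.39 and 0.89), Cux2 of the neocortex (0.15) and Drd1 of the striatum (0.35). For each of them the libraries of the genotypes overlapped. Ttr was at 1.085 to 4.37 CPM in WT and 2.81 to 26.9 CPM in T29-1 Cre. Clic6 was at 0.262 to 0.751 CPM in WT and 0.45 to 1.37 CPM in T29-1 Cre. The summed level did not overlap between the genotypes for 1 of all 13 lists, the neocortex, at 131.5 to 132.6 CPM in WT and 133.9 to 144.7 CPM in T29-1 Cre. Thalamus markers had a log2 fold change above 0 for 6 of 6 (sums of 121 to 135 CPM in WT and 131 to 147 CPM in T29-1 Cre) and oligodendrocyte markers below 0 for 8 of 8 (3574 to 4300 and 3500 to 3838 CPM). Of all genes, 49.7% were above 0. Other lists were uneven as well. Below 0 were 8 of 10 granule cell, 7 of 8 CA2 and CA3, 5 of 6 excitatory neuron and 5 of 6 microglia markers. Above 0 were 5 of 6 neocortex and 3 of 3 tested choroid plexus markers. WT replicate 4 had the lowest sum of astrocyte markers, 3612 CPM against 4553 to 4753 CPM in the other libraries. The part of any of these markers in the values of the members was not tested.

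**Figure D5:**
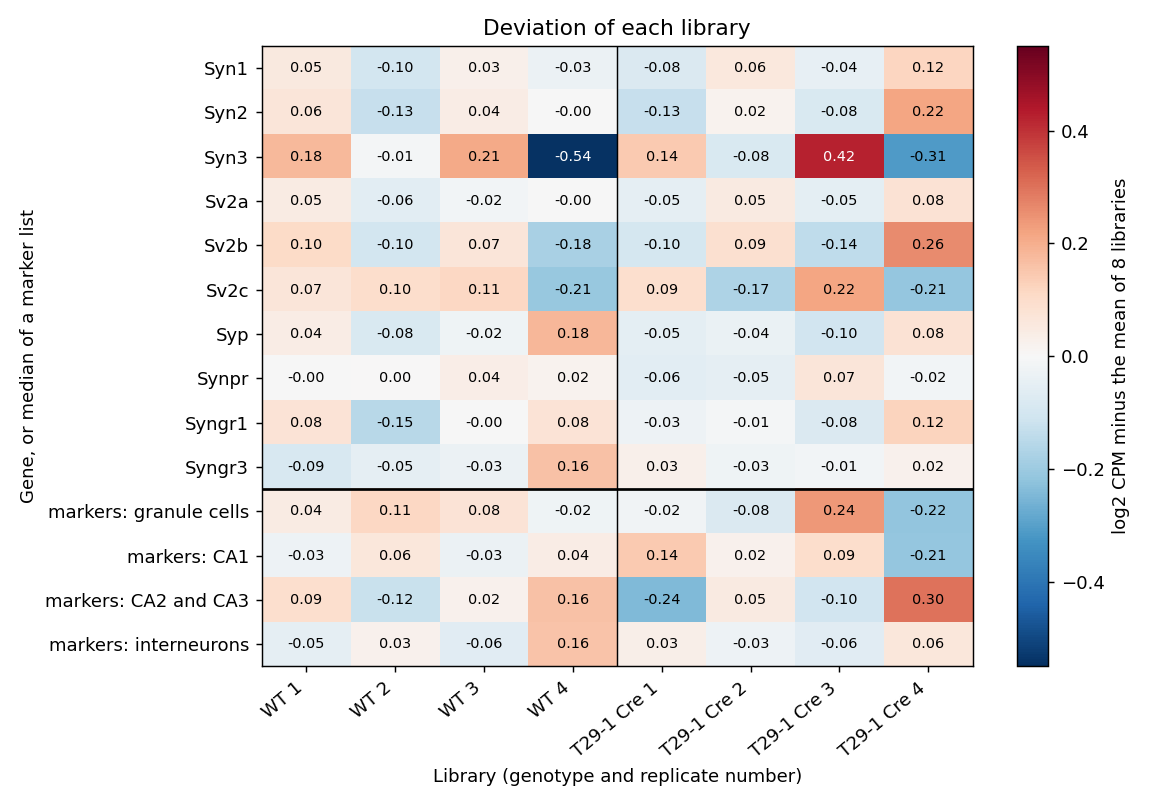
Deviation of log2 CPM from the mean of the 8 libraries (colour and printed value) for each gene, and below the black line the median deviation of 4 marker lists, with libraries as columns. T29-1 Cre replicate 4 is high for Syn2 (0.22), Sv2b (0.26) and the CA2 and CA3 markers (0.30) and low for Syn3 (-0.31) and the granule cell markers (-0.22). WT replicate 4 is high for the CA2 and CA3 markers (0.16) and low for Sv2b (-0.18) and Syn3 (-0.54).

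For the 3 members with the largest spread, the genes with the most similar profile were sought among 11501 genes whose mean level was 5 CPM or more. Closest to Syn3 was Glis3, a transcription factor gene that is also 1 of the 10 granule cell markers, with a root mean square difference of 0.106 on the log2 scale over 8 libraries, against a median of 0.302 for all genes. It was followed by Sned1 (0.121) and Fbxo32 (0.123). Glis3 was at 16.5, 15.1, 15.01 and 9.70 CPM in WT and 13.9, 12.5, 16.8 and 12 CPM in T29-1 Cre. Its lowest value was in WT replicate 4 and its highest in T29-1 Cre replicate 3, as for Syn3. Glis3 was chosen for likeness over the same 8 libraries, so this match follows from the choice. Of all genes, 27.2% were lowest in WT replicate 4. In WT replicate 4, Syn3 lay 0.54 and Glis3 0.50 below their mean log2 CPM, and the median deviation of the 10 granule cell markers was -0.0231. In the other WT libraries that median was 0.0435 to 0.1135. A relation between the granule cell markers and Syn3 was not tested. Closest to Sv2c were C130074G19Rik (0.0557), Ntn4 (0.065) and Zfp46 (0.0673), and closest to Sv2b were Chst11 (0.0377), Nt5dc3 (0.0407) and Astn1 (0.0447). Chst11, a chondroitin sulfotransferase gene, was lowest in WT replicate 4 at 75.6 CPM and highest in T29-1 Cre replicate 4 at 99.1 CPM. These are the same libraries as for Sv2b, which again follows from the choice by likeness.

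The synapsin genes share an arrangement in which a gene of the Timp family, inhibitors of metalloproteinases, lies within each of them on the opposite strand. Timp1 lies within Syn1 and had 0 to 2 counts per library, too few to be tested. Timp4 lies within Syn2, shares 90 exon bases with it and averaged 24.8 ± 1.94 CPM (WT) and 24.2 ± 0.285 CPM (T29-1 Cre, SD, n = 4 per genotype), a log2 fold change of -0.035 (SE 0.0641, edgeR adjusted p = 0.998). Timp3 lies within Syn3 (chromosome 10, 86300372 to 86349506, plus strand) and averaged 80.2 ± 7.31 and 84.2 ± 3.90 CPM (errors are SDs, n = 4 per genotype), a log2 fold change of 0.069 (SE 0.0647, edgeR adjusted p = 0.998). Timp3 shares 1733 exon bases with Syn3 and had more reads in every library, 1681 to 2532 against 168 to 381. The libraries were stranded, but the strand setting of the counting is not given in the sources used here, so the level of Syn3 is uncertain. The same limit applies to other members with shared exon bases, among them Syn2 (90) and Syp (875, with the antisense transcript Gm14703).

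The annotation places 18 genes in overlap with a member, of which 16 are in the count table and 5 were tested. Besides Timp3 and Timp4 these were Araf, a kinase gene that shares 9 exon bases with the end of Syn1 (log2 fold change 0.023), Rpl3, a ribosomal protein gene that meets Syngr1 without shared exon bases (-0.046), and Gm14703, a transcript antisense to Syp with 875 shared exon bases. Gm14703 had 20 to 75 counts per library, with the most in T29-1 Cre replicate 4 and the second most in WT replicate 4, the libraries that were also highest for Syp in each genotype. Its log2 fold change was 0.44 (SE 0.336, edgeR adjusted p = 0.998). Of the rest, 8 had no counts (0) in any library, and the 3 others had at most 11 counts in a library.

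The other genes of the vesicle cycle were read from 6 lists with 80 distinct tested genes. Of these, edgeR, DESeq2 and limma-voom each called 0, and each gave 1 gene at an unadjusted p under 0.05. The shares of all genes under 0.05 were 2.43%, 1.67% and 2.41%, in that order. The log2 fold change in edgeR was above 0 for 38 genes and below 0 for 42, with a median of -0.0026 beside -0.0008 for all genes. In edgeR the 1 became 3 without WT replicate 3 (Camk2d, Camk4 and Prkacb), without WT replicate 4 (Camk2d, Slc32a1 and Sncb) and without T29-1 Cre replicate 4. The shares of all genes under 0.05 in these settings were 4.2%, 2.87% and 2.82%, in that order. Without T29-1 Cre replicate 3 the 1 gene was Doc2b in place of Camk2d, beside 2.17% of all genes. These genes were named after their values were seen. With all libraries the 1 gene was Camk2d, a CaM kinase II gene, with averages of 39.7 ± 2.38 (WT) and 47.8 ± 7.77 CPM (T29-1 Cre, SD, n = 4 per genotype), a log2 fold change of 0.27 (SE 0.0936, edgeR adjusted p = 0.998).

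By role, 4 relatives of the members were tested, with edgeR calling 0 and a median log2 fold change of -0.018. These were Svop, an SV2-related protein (-0.019), Sypl (-0.017), Sypl2 (0.084) and Syngr2 (-0.054), which encode relatives of synaptophysin and synaptogyrin found also outside neurons. Of 8 vesicular transporters edgeR called 0, and the median was 0.042, with Slc17a7 at -0.027 and Slc6a17, an amino acid transporter of vesicles, at 0.064. Slc32a1, the transporter that fills GABA vesicles, averaged 95.6 ± 4.24 (WT) and 100.2 ± 3.74 CPM (T29-1 Cre, SD, n = 4 per genotype), a log2 fold change of 0.068.

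Of 16 further vesicle proteins, 16 subunits and partners of the vesicle proton pump, 16 kinases and phosphatases of synapsins and 20 genes of vesicle recycling, edgeR called 0 in each list. The median log2 fold changes were 0.021, -0.019, -0.0071 and -0.0025, in that order. The most counted genes of each list had values of 0.0014 for Vamp2, the vesicle SNARE bound by synaptophysin, and 0.11 (SE 0.0721) for Rab3c, a vesicle GTPase. They were 0.059 for Atp6v1a and -0.0062 for Atp6v1b2 of the pump, and -0.023 for Camk2a and -0.07 for Ppp3ca, a catalytic subunit of calcineurin. Dnm1, the dynamin of vesicle retrieval, was at -0.021 and Cltc, the clathrin heavy chain, at 0.08.

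In the authors' deposited table the log2 fold changes of the 10 members differed from those of edgeR here by at most 0.0024. The smallest p-value of a member in the authors' deposited table was 0.38, for Syp.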

How the data were processed

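Hippocampal poly(A) RNA was measured in 4 WT and 4 T29-1 Cre libraries, read as pairs of 150 bases. The authors deposited a table of raw read counts per gene name, whole numbers with no scaling, and, per the submitters' processing notes, used STAR 2.6.1d, featureCounts and edgeR 3.11 with GRCm38. For annotation, strand setting and multi-mapping reads the choice is not given in the sources used here. Their deposited comparison gives a log2 fold change and an unadjusted p-value per gene.

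Counts were analysed in R 4.3.3 with edgeR 4.0.16 (filterByExpr with a minimum count of 10 and total of 15, TMM, glmQLFit and glmQLFTest, no covariate), with Benjamini-Hochberg adjustment over 15996 genes and a threshold of 0.05. Standard errors are the log2 fold change over the square root of F. Log2 CPM used a prior count of 2. An exact two-sided permutation test over 70 assignments was run on each member. Lengths and positions came from GENCODE M21 on GRCm38. Alternatives were DESeq2 1.42.0, limma 3.58.1 (voom), 2 other scalings, no filter, a replicate block and each library left out. The scripts were tested on simulated data.

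The members and lists were chosen with earlier results of these data known. Named were the members, genes overlapping them, the 2 most counted genes of each list and any called, and the 3 genes closest in profile to each of the 3 most variable members; the other relatives, Slc32a1 and Camk2d were added after the values were seen. The genes behind 1 count without T29-1 Cre replicate 4 are not reported here.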

Additional observations from a re-analysis of the deposited data

Results flagged for a closer look

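In each genotype of 4 libraries, the 10 genes and 6 ratios were checked for 1 library distant from the rest, by Dixon's criterion (a gap of over 0.829 of the range). It was met in 3 of 32 groups. Chance gives about 1 in 20 for independent groups, which these are not.

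In WT, Sv2c had a gap of 0.856 of the range because WT replicate 4, at 22.2 CPM, lay below the others at 26.9 to 27.7 CPM. The ratio Syn3/Syn1 in WT had a gap of 0.866, again from WT replicate 4, at 0.0103 against 0.0156 to 0.0166. In T29-1 Cre, the ratio Syn2/Syn1 had a gap of 0.939 from T29-1 Cre replicate 4, at 1.22 against 1.11 in each of the others.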

How the results depend on the processing

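The count of members called by the alternatives was 0 in all 14, replicate block included, and the counts for the 6 vesicle lists were 0 in the 10 run for them. Over all genes, 1 was called in the analysis reported and in 12 alternatives, and 2 with no filter on low counts and with the replicate block. No pairing of the samples by replicate number was seen (same-numbered libraries correlated at -0.073 to 0.054 in their deviations, and 2 of 8 matched best with their own number). Such values cannot tell whether the samples were paired by design. With the replicate block the log2 fold changes ran from -0.059 (Syp) to 0.085 (Syn3), edgeR adjusted p at least 0.997.

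Signs of values near 0 depended on single libraries: of 140 alternative values of the members 23 changed sign, of which 20 came from leaving out a library, and 13 of 60 for the ratios. Leaving out T29-1 Cre replicate 4 changed the sign for 7 members (all but Syn3, Syp and Synpr) and WT replicate 2 for 5 (Syn1, Syn2, Sv2a, Syngr1 and Syngr3). WT replicate 3 did so for 3 (Sv2c, Syngr1 and Syngr3), and 1 each changed without WT replicate 1 (Syngr3), WT replicate 4 (Syn3), T29-1 Cre replicate 1 (Syngr3), T29-1 Cre replicate 2 (Sv2c) and T29-1 Cre replicate 3 (Syn3). With upper quartile scaling, Syngr1 moved to -0.0067 and Syngr3 to -0.0045, and with no filter Syngr1 to -0.0003. With each library left out in turn, the log2 fold change ran from -0.0086 to 0.058 for Syn1, -0.0597 to 0.059 for Syn2, -0.065 to 0.19 for Syn3, -0.0095 to 0.035 for Sv2a, -0.025 to 0.11 for Sv2b, -0.12 to 0.032 for Sv2c, -0.048 to 0.027 for Syngr1 and -0.028 to 0.062 for Syngr3. For Syp (-0.098 to -0.0075) and Synpr (-0.054 to -0.013) it stayed below 0. The ratios ran from -0.051 to -0.0024 for Syn2/Syn1, -0.102 to 0.21 for Syn3/Syn1, -0.014 to 0.075 for Sv2b/Sv2a, -0.15 to 0.038 for Sv2c/Sv2a, -0.0198 to 0.069 for Synpr/Syp and -0.051 to 0.039 for Syngr3/Syngr1. The cause of these sign changes, beyond the fewer samples, was not tested. Counting error was widest for Syn3 and Sv2c (coefficients of variation of 6.00% and 3.83%), where the spread between libraries was larger in each genotype, and it was as large as the spread for Synpr in WT.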
